A study of Rattus norvegicus with 2 samples.

Results

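The genes described here encode the insulin-like growth factors Igf1 and Igf2, their receptors Igf1r and Igf2r, and the binding proteins Igfbp2 to Igfbp7. They were found as the probes whose gene symbol in the platform annotation is one of these 10 names, which gave 15 probes of 9 genes among 20417 named probes of 15611 genes. No probe carried the name Igfbp7, which is therefore not analysed here. RNA from 2 samples of untreated rat lung cells, taken without culture, was labelled with Cy3. Each was hybridised on a two-colour Agilent array against Cy5-labelled RNA of a mixture called mix1. Mix1 pooled 2 kinds of cultured rat cell, primary ear fibroblasts (PEF) in DMEM and bone marrow cells (BMC) in αDMEM, each with serum. The labels give no strain, age or sex, do not say whether the lung samples came from separate animals, and do not give the proportions of the mixture.

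Igf1 and Igf2 are small secreted peptides related to insulin. Both act through Igf1r, a receptor tyrosine kinase that signals through adaptor proteins to the PI3K and AKT kinases and to growth control by mTOR. Igf2r, which is also the large mannose 6-phosphate receptor, has no kinase and takes Igf2 into the cell for degradation. The binding proteins hold the growth factors in extracellular fluid, and proteases such as Pappa release them. In lung, Igf1 is known as a product of mesenchymal cells and macrophages, and Igf2 as a fetal growth factor whose level falls after birth.

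Every value is a log2 ratio of lung over mix1, so -1 is a level 2-fold lower in lung, and errors are the SD of 2 arrays. The direction is likely, from the wording of the series' design and the sign of lung genes: 6 of 6 epithelial genes of the alveoli and airways were positive, from 3.94 to 7.02. If the ratios in fact ran the other way, higher and lower would swap throughout. The deposited values keep an offset: the median gene lay at -0.22 over both arrays. In bulk RNA, fewer cells of a type and less RNA per cell cannot be told apart. Mix1 entered as 1 RNA, no array had the dyes swapped, and a dye effect cannot be told apart from a difference between the RNAs. Nothing says that the samples are biological replicates, so p-values measure a spread that may be only technical.

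The 5 sequences shown first are the promoter windows of the lowest ligand, receptor and binding protein (Igf2, Igf1r and Igfbp4), with that of Igf1 to set the ligands side by side. Each runs from 250 bases before to 50 bases after a RefSeq transcription start in assembly GRCr8, on the gene's own strand, with motif matches in capitals. The letters searched, on both strands, were those of the TATA box, searched as the letters TATAAA, and of the GC box, searched as the letters GGGCGG. The E-box was searched as the letters CACGTG, the site of the Fos and Jun factors as TGACTCA, the site of STAT factors as TTCNNNGAA, and the box named for its letters as CCAAT. No match overlapped another. Igf2 has 2 annotated windows, at chr1:207253931-207254230 and chr1:207250426-207250725, both on the minus strand. The Igf1r window is chr1:130959747-130960046 and the Igfbp4 window chr10:84491221-84491520, both on the plus strand. The Igf1 window is chr7:24172282-24172581, also on the plus strand.
Igf2, start 1: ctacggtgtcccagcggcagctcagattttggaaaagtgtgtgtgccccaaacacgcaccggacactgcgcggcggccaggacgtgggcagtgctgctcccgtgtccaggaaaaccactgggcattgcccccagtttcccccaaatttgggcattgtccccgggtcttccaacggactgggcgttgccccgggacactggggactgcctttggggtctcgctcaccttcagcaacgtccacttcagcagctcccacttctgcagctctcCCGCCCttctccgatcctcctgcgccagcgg
Igf2, start 2: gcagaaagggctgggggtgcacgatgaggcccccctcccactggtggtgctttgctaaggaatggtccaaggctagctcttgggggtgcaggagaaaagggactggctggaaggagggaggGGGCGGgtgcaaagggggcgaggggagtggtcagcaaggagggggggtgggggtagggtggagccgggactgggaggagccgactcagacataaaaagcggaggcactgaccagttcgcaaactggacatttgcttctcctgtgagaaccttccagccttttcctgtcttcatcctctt
Igf1r: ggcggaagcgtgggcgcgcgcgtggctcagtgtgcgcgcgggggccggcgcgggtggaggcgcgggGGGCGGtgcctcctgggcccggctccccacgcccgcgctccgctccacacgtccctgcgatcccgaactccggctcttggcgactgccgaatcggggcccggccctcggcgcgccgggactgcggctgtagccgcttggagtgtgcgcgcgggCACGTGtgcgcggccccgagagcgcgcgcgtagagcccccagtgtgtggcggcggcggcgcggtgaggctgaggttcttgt
Igfbp4: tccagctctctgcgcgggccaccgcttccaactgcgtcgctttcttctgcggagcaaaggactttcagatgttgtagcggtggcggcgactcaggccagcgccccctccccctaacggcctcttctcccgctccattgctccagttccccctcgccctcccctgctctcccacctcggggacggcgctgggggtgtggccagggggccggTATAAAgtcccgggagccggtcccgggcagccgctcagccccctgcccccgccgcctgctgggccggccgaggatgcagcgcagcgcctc
Igf1: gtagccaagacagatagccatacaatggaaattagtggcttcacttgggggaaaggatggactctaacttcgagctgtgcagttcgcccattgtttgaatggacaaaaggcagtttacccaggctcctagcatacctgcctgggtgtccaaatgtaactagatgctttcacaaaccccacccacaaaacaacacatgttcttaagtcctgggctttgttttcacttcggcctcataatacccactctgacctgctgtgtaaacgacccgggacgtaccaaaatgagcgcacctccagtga

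Among the motifs searched, each Igf2 window held a GC box and nothing else, and the Igf1r window a GC box and an E-box. The Igfbp4 window held a TATA box that begins 40 bases before the start, the only one among the 11 windows of the 10 genes. None of these letters occurred in the Igf1 window, nor in those of Igfbp3, Igfbp5 and Igfbp6. The windows of Igf2r, with 2 GC boxes and 2 E-boxes, of Igfbp2, with 1 of each, and of Igfbp7, with 4 GC boxes, are not printed. Over all 33469 windows of the same length, 14.2% held the TATA box, 33.1% the GC box and 6.42% the E-box. The CCAAT box was in 37.5% of them, the STAT site in 8.87% and the Fos and Jun site in 4.63%. None of the 11 windows held a CCAAT box, a STAT site or a Fos and Jun site. The Igf1r window was 78.0% G and C, against a median of 51.7% over all windows, 63.3% and 60.7% in the Igf2 windows, 71.0% in that of Igfbp4 and 48.3% in that of Igf1. These matches describe the sequence, and no measurement here bears on what binds it.

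All 9 measured genes were lower in lung and none was higher, in limma's moderated test across all genes (Benjamini-Hochberg adjusted p from 0.00117 to 0.0138). Over all genes 82.7% passed this test, 49.7% as lower and 32.9% as higher, so passing it says little about any gene. A stricter reading used size. At least 2-fold lower values in both arrays were found for 6 of the 9 genes, namely Igf2, Igf1r, Igf2r, Igfbp2, Igfbp3 and Igfbp4, against 15.8% of all genes. The same 6 passed limma's treat test against a 2-fold change, which 12% of all genes passed as lower. The median ratio of the 9 genes was -1.67, against -0.22 for all genes. Igf1, Igfbp5 and Igfbp6 differed from mix1 by less than 2-fold.

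**Figure D1:**
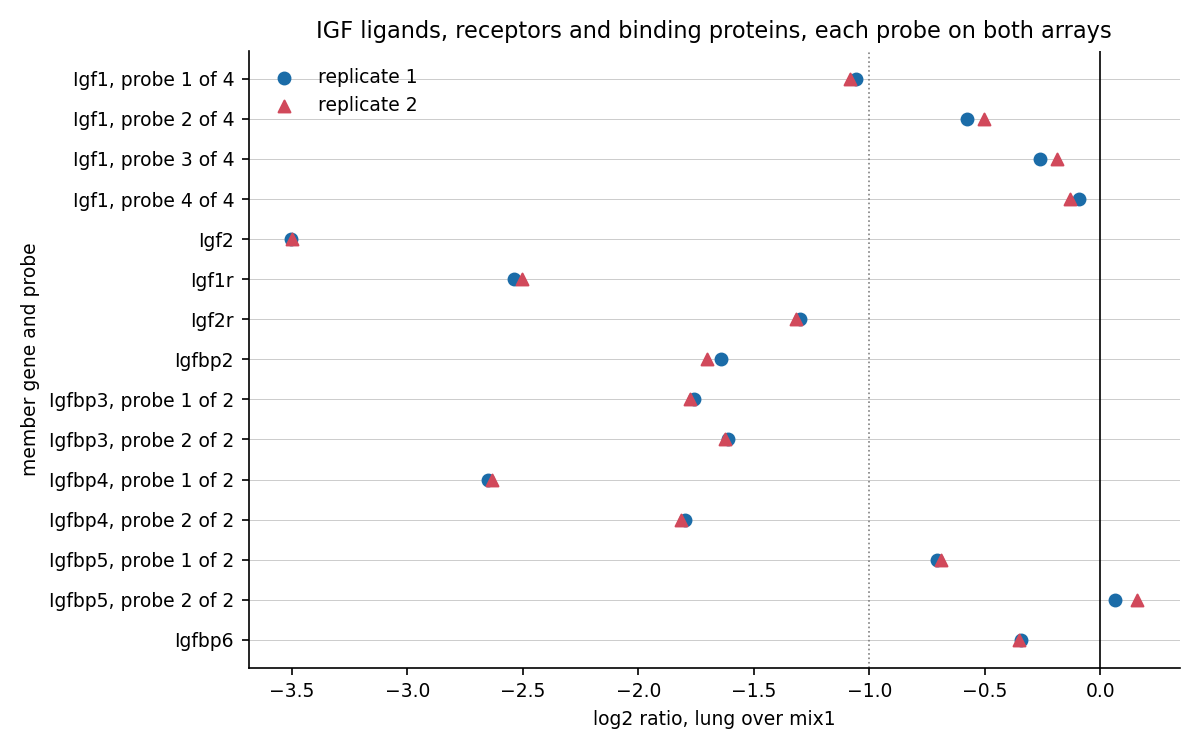
Log2 ratio of lung over mix1 (horizontal axis) for each of the 15 probes of the 9 genes, with a circle for replicate 1 and a triangle for replicate 2. The dotted line marks 2-fold lower. Both arrays nearly coincide for every probe, Igf2 is lowest at -3.50, and the probes of Igf1, Igfbp3, Igfbp4 and Igfbp5 lie farther from each other than the arrays do.

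The ligands differed most. Igf2, the ligand that both receptors bind, had a log2 ratio of -3.50 in replicate 1 and -3.50 in replicate 2. Its mean of -3.50 ± 0.0033 (SD, n = 2) is 11.3-fold lower in lung (limma 95% interval -3.61 to -3.39, adjusted p 0.00117), and only 1.52% of genes had a lower ratio. Igf1, the main mediator of growth hormone action, gave -0.50 and -0.48 on the same arrays. Its mean of -0.49 ± 0.01 (SD, n = 2), 1.40-fold lower, has a limma interval of -0.60 to -0.37 and an adjusted p of 0.00439, and 35.7% of genes lay below it. Igf2 was thus far below Igf1 in each array, with no overlap.

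The Igf1 value is a mean of 4 probes that did not give the same ratio. Probe A_44_P126021 lay at -1.07 ± 0.02 (SD, n = 2), A_44_P421502 at -0.54 ± 0.05, A_44_P421499 at -0.22 ± 0.05 and A_44_P366723 at -0.11 ± 0.03. The lowest and highest differ by 0.96 on the log2 scale, 12.9 times the largest difference between the arrays for any of them. When each probe was fitted on its own, the probe nearest to 0 did not pass (limma adjusted p 0.0665). No transcript sequence of the probes was used here, so which Igf1 transcripts each detects is not known from these data.

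Both receptors were lower in lung. Igf1r, the signalling receptor for both ligands, lay at -2.54 in replicate 1 and -2.51 in replicate 2, with a mean of -2.52 ± 0.02 (SD, n = 2), or 5.74-fold lower (limma adjusted p 0.00117). Igf2r, which clears Igf2 and carries mannose 6-phosphate enzymes to lysosomes, lay at -1.30 and -1.32, with a mean of -1.31 ± 0.01 (SD, n = 2), or 2.48-fold lower (limma adjusted p 0.00143). On both arrays Igf1r lay below Igf2r, with no overlap, and 3.43% of genes lay below Igf1r against 11.3% below Igf2r. Each receptor was measured by a single probe, as were Igf2, Igfbp2 and Igfbp6.

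The binding proteins split into 3 that were clearly lower and 2 near the median gene. Igfbp4, the substrate of the protease Pappa, was the lowest at -2.23 in replicate 1 and -2.22 in replicate 2, with a mean of -2.22 ± 0.0011 (SD, n = 2), or 4.67-fold lower (limma adjusted p 0.00117). Its 2 probes lay at -2.64 and -1.81, both beyond 2-fold. Igfbp3, the main carrier of growth factor in serum, lay at -1.69 and -1.70, with a mean of -1.69 ± 0.01 (SD, n = 2), or 3.23-fold lower (limma adjusted p 0.00123). Its probes gave -1.77 and -1.62, the closest pair among these genes. Igfbp2, a binding protein that alveolar type 1 cells are known to express, lay at -1.64 and -1.70, with a mean of -1.67 ± 0.04 (SD, n = 2), or 3.18-fold lower (limma adjusted p 0.00137).

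Igfbp5 and Igfbp6 differed little from the bulk of genes. Igfbp5, a binding protein that attaches to extracellular matrix, lay at -0.32 in replicate 1 and -0.27 in replicate 2, with a mean of -0.29 ± 0.04 (SD, n = 2; limma adjusted p 0.0138). Its probes disagreed in sign: A_44_P264240 lay at -0.70 ± 0.01 and A_44_P285534 at 0.11 ± 0.07, the latter not passing on its own (limma adjusted p 0.121). Igfbp6, which prefers Igf2 as a ligand, lay at -0.35 on both arrays, -0.35 ± 0.0055 (SD, n = 2; limma adjusted p 0.00725). With array medians subtracted, Igfbp5 lay at -0.07 (adjusted p 0.460) and Igfbp6 at -0.13 (adjusted p 0.183), and neither passed. In that setting 7 of the 9 genes were lower, against 37.9% of all genes, and 6 were at least 2-fold lower in both arrays, against 11.6%.

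**Figure D2:**
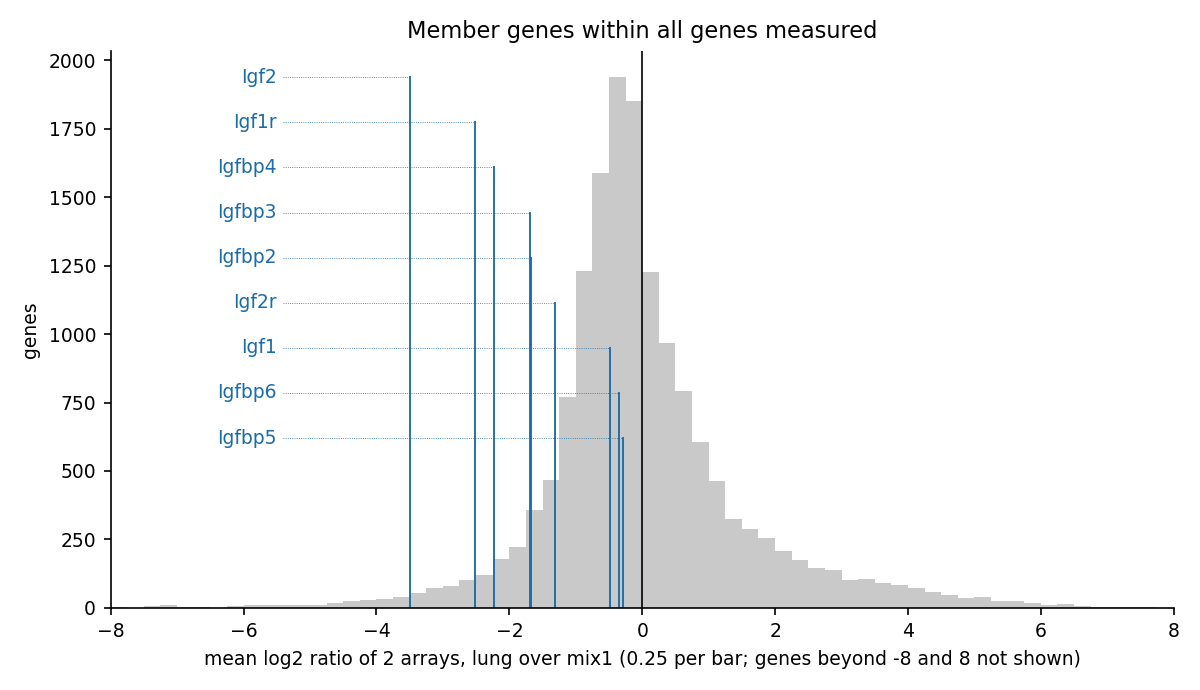
Number of genes (vertical axis) by mean log2 ratio of lung over mix1 in steps of 0.25 (horizontal axis), with a blue line at each of the 9 genes; the height of a line has no meaning. Igfbp5, Igfbp6 and Igf1 lie within the peak of the distribution around -0.22, and Igf2 lies far out on its lower side at -3.50.

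From the lowest ratio upwards the order was Igf2, Igf1r, Igfbp4, Igfbp3, Igfbp2, Igf2r, Igf1, Igfbp6 and Igfbp5. The array ranges of neighbours did not overlap except for Igfbp3 and Igfbp2, whose means differ by 0.02 on the log2 scale. These are differences between RNAs, not levels, and the spread of 2 arrays understates the error of the order. Probes of 1 gene differed by 0.15 to 0.96 in the 4 genes here with several probes, and by a median of 0.72 over the 3767 genes of the table with several. The steps from Igf1r to Igfbp4 (0.30), Igfbp4 to Igfbp3 (0.53), Igfbp2 to Igf2r (0.36), Igf1 to Igfbp6 (0.14) and Igfbp6 to Igfbp5 (0.06) are smaller than that median. The higher probe of Igfbp4, at -1.81, lay next to the lower probe of Igfbp3, at -1.77. The step from Igf2 to Igf1r (0.98) and that from Igf2r to Igf1 (0.82) exceed that median. Both are smaller than the 75th percentile of the probe range over the same 3767 genes, 1.37. The lowest probe of Igf1 lay at -1.07, and the single probe of Igf2r at -1.31.

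Around the growth factors, 7 of 7 measured genes for further ligands, carriers and proteases of the binding proteins were lower, with a median of -0.64, where 49.7% of all genes were lower. With array medians subtracted 5 of the 7 were lower, against 37.9% of all genes. As deposited, 3 of the 7 were at least 2-fold lower in both arrays, against 15.8% of all genes. Pappa, the metalloprotease that cleaves Igfbp4 and frees bound growth factor, lay at -6.05 in replicate 1 and -6.04 in replicate 2 (limma adjusted p 0.00117), below every gene of the main list. Its inhibitor Stc2 lay at -5.14 and -5.20, and Stc1, a related stanniocalcin that also binds Pappa, at -1.41 and -1.44. Thus protease, inhibitors and substrate were all lower in lung. Igfbp1, a binding protein made mainly by liver, lay at -0.64 ± 0.02 (SD, n = 2). Igfals, the subunit that joins Igfbp3 and growth factor into the large serum complex, lay at -0.57 ± 0.18 (SD, n = 2). The insulin genes Ins1 and Ins2 both lay at -0.24, beside the median gene, and with array medians subtracted neither passed (-0.02 each, adjusted p 0.861 and 0.858).

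Proteins that share the amino-terminal domain of the binding proteins were lower for 8 of 11 genes and higher for 2, with a median of -2.54. Over all genes 49.7% were lower and 32.9% higher. At least 2-fold lower values in both arrays were found for 7 of the 11, against 15.8% of all genes. Kazald1 lay at -3.58 ± 0.01 (SD, n = 2), the matrix growth regulator Ccn2 at -3.33 ± 0.03, the secreted serine protease Htra1 at -2.89 ± 0.02 and Ccn5 at -2.87 ± 0.01. The exceptions were Igfbpl1, a binding protein-like secreted factor, at 2.18 ± 0.01 (SD, n = 2) and Crim1, a transmembrane protein that binds BMPs, at 0.97 ± 0.0006. Igfbpl1 is the only gene of these 11 that exceeded mix1 by 2-fold on each array, as 16.5% of all genes did. The 3 genes for proteins that bind the Igf2 messenger RNA were lower, as were 49.7% of all genes. Igf2bp3 lay at -1.39 ± 0.05 (SD, n = 2), Igf2bp1 at -1.01 ± 0.20 and Igf2bp2 at -0.92 ± 0.02. Igf2bp1 was the least even of them, at -0.87 and -1.15.

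Genes of the growth hormone arm, which drives Igf1 transcription in liver, were divided. Among the 8 measured, 4 passed as higher and 3 as lower, and the list's median was 0.22. Genes of the whole table were split too, 32.9% passing as higher and 49.7% as lower. Once each array's median was taken off, 5 of the 8 passed upwards and 3 downwards, beside 40.4% and 37.9% for the whole table. Socs2, a feedback inhibitor of growth hormone signalling that the hormone induces, was the highest at 3.28 in replicate 1 and 3.51 in replicate 2, or 10.5-fold higher (limma adjusted p 0.00151). The phosphatase Ptpn6, abundant in blood cells, lay at 2.65 ± 0.01 (SD, n = 2) and Stat5a, a transcription factor of the pathway, at 0.71 ± 0.03. The kinase Jak2 was lower at -0.94 ± 0.01, as were Cish at -0.701 ± 0.04 and Stat5b at -0.685 ± 0.03. The growth hormone receptor Ghr lay at 0.39 ± 0.0079 (SD, n = 2), a mean of 3 probes that ranged from -0.28 to 1.22.

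Downstream of Igf1r the genes did not move one way. Of 18 adaptors and regulators of the insulin and IGF receptors, 7 were lower and 5 higher, with a median of -0.10, where 49.7% of all genes were lower and 32.9% higher. With array medians subtracted, 6 of the 18 were lower and 7 higher, near the 37.9% and 40.4% of all genes. The lowest was Grb14, an inhibitor of the insulin receptor, at -4.05 in replicate 1 and -4.17 in replicate 2, followed by the adaptor Shc1 at -3.40 ± 0.04 (SD, n = 2) and Grb10, an inhibitor of both receptors, at -1.74 ± 0.05. The probes of Shc1 ranged from -6.73 to -1.26 and those of Grb10 from -2.48 to -0.30. The exchange factor Sos2 was higher at 1.40 ± 0.28, with probes from 0.41 to 2.53. The docking protein Irs1 was lower at -1.16 ± 0.13 (SD, n = 2), and Irs2, at 0.09 ± 0.16, did not pass, with 5 probes from -0.88 to 1.32. The insulin receptor Insr lay at 0.09 in replicate 1 and 0.86 in replicate 2 and did not pass (limma adjusted p 0.206). With array medians subtracted both passed as higher, Insr at 0.69 (adjusted p 0.00323) and Irs2 at 0.32 (adjusted p 0.00775).

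Of 25 genes of the PI3K, AKT and mTOR arm, 15 were lower and 8 higher (median -0.26), against 49.7% and 32.9% of all genes. With array medians subtracted 11 were lower and 10 higher, against 37.9% and 40.4% of all genes. Catalytic subunits of PI3K were among the higher genes: Pik3cb lay at 2.03 ± 0.05 (SD, n = 2) and Pik3cd, the leukocyte form, at 1.43 ± 0.21. The regulatory subunits were divided: Pik3r1 was higher at 1.36 ± 0.30, and Pik3r2 (-0.83 ± 0.02) and Pik3r3 (-0.26 ± 0.03) were lower. Pik3r3 did not pass with array medians subtracted (-0.04, adjusted p 0.684). The translation repressor Eif4ebp1 (-1.55 ± 0.01) and the mTOR inhibitor Tsc1 (-1.39 ± 0.07) were lower, while Mtor itself lay at 0.34 ± 0.03. Among 6 genes of mannose 6-phosphate sorting, which shares Igf2r, 3 were lower, close to the 49.7% of all genes, and 1 higher, against 32.9%. With array medians subtracted 2 were lower and 2 higher, against 37.9% and 40.4% of all genes. Nagpa, the enzyme that uncovers the sorting signal, lay at -1.56 ± 0.04 (SD, n = 2). M6pr, the small receptor of that pathway, lay at -0.38 ± 0.0036, which with array medians subtracted did not pass (-0.16, adjusted p 0.101), whereas Igf2r did (-1.09). Of 6 measured imprinted growth genes, a class to which Igf2 belongs, 3 were lower and 2 higher, against 49.7% and 32.9% of all genes. Subtracting array medians gave 2 lower and 3 higher, against 37.9% and 40.4%. Ndn lay at -1.83 ± 0.03 (SD, n = 2), Phlda2 at -0.52 ± 0.07, Plagl1 at -0.32 ± 0.0003 and Dlk1 at 0.96 ± 0.0070. Plagl1 did not pass with array medians subtracted (-0.10, adjusted p 0.286).

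**Figure D3:**
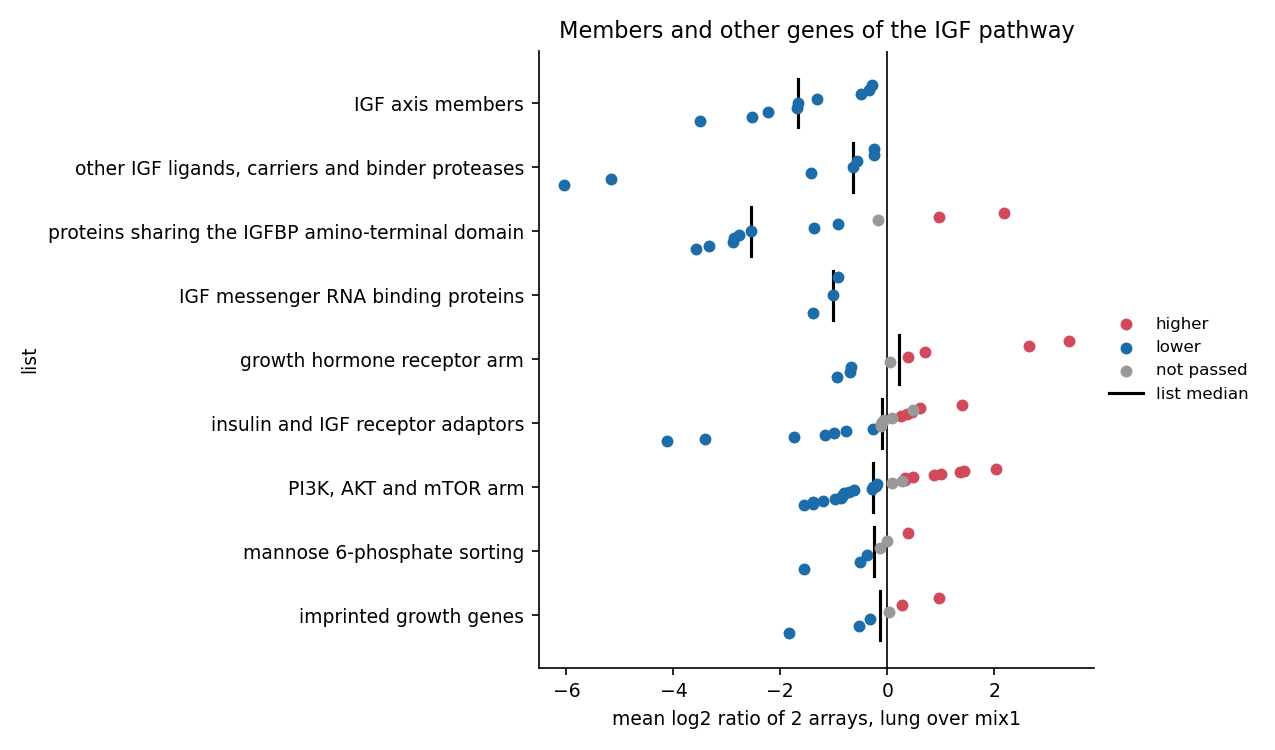
Mean log2 ratio of lung over mix1 (horizontal axis) for the 9 genes and for 8 lists of other genes of the pathway, 1 point per gene and a bar at each list's median. Blue and red points passed limma's test as lower and higher, and grey points did not pass. Points of the lists for ligands, carriers and proteases lie left of 0, as do the 9 genes, and the adaptors and the PI3K, AKT and mTOR arm lie on both sides.

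Markers of cell types were set beside these genes. For the counts of markers below, 49.7% of all genes were lower and 32.9% higher in the same test. All 11 measured markers of fibroblasts and marrow stroma were lower in lung, from -7.44 for Prrx1 to -1.01 for Pdgfra, with Col1a1 at -7.25 ± 0.09 (SD, n = 2) and a median of -6.03. Each of the 9 growth factor genes lay above the median of this list, Igf2 included. The list spreads widely, and Igf2, Igf1r, Igfbp4, Igfbp3, Igfbp2 and Igf2r lay below its highest marker, Pdgfra. All 7 endothelial markers were higher, with a median of 4.07, and the macrophage markers were divided, 3 of 6 higher and 2 lower, from -2.49 for Msr1 to 2.59 for Mrc1. Red cell markers (3 of 3 higher, median 3.56) and cardiac markers (4 of 5 higher, median 3.44) were also mostly higher in lung. Smooth muscle markers were divided, with Tagln at -3.89 and Cnn1 at -3.29 lower, Des at 2.04 higher and 1 of 4 not passing. Their median of -1.68 falls between widely spaced values. Mesothelial markers had a median of 1.69, and 3 of 4 passed as higher. The part of these cell types in the ratios of the growth factor genes was not tested.

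**Figure D4:**
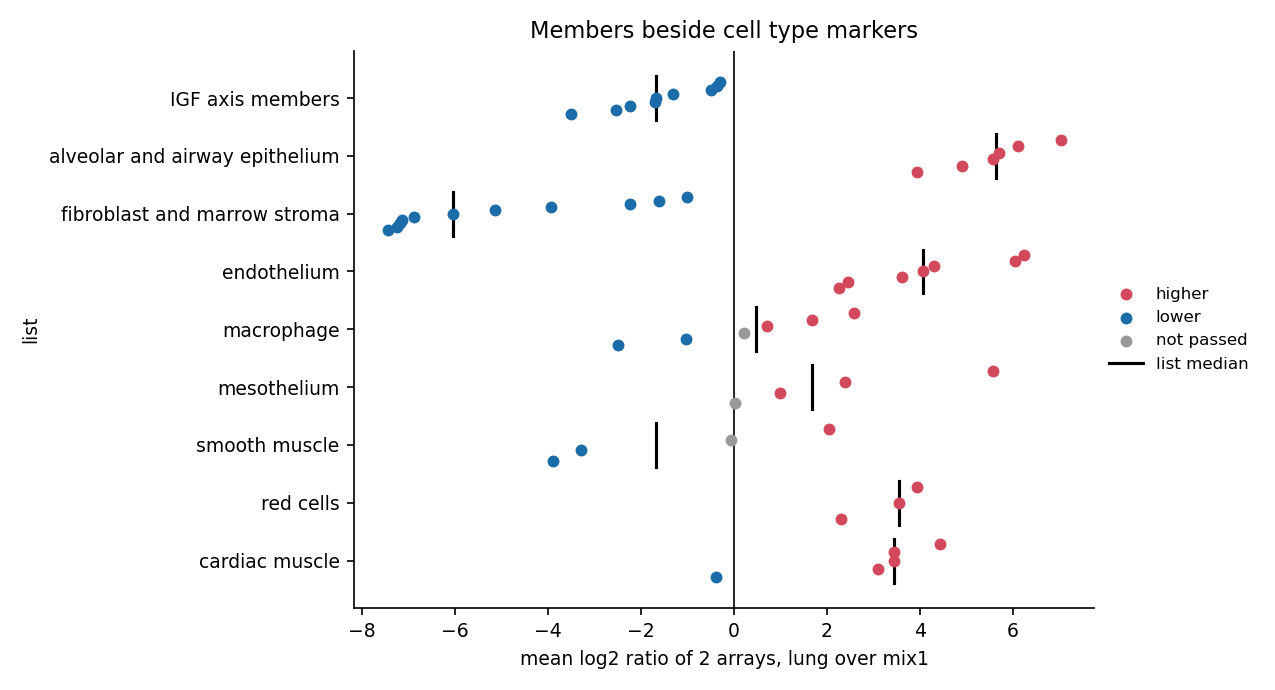
Mean log2 ratio of lung over mix1 (horizontal axis) for the 9 genes and for markers of 8 cell types, 1 point per gene, with a bar at each median; colours as passed higher (red), passed lower (blue) or not passed (grey). The fibroblast and marrow stroma markers have a median of -6.03, below the -1.67 of the 9 genes, and the epithelial and endothelial markers lie above 2.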

How the data were processed

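Each probe has 1 deposited value on each array, made by the authors with Agilent Feature Extraction, per the submitters' processing notes. The deposited values were read as log2 ratios between the dyes, since values from -11.74 to 9.09 exceed what base 10 allows for a 16-bit scanner. Log base, centring, dye normalization and background correction were not given in the sources used here. A filter on missing, zero or repeated extreme values would have removed nothing. Background handling sets the size of ratios in which 1 channel is dim, and depth is not defined for arrays, where the number of arrays limits the precision.

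Gene names came from the platform annotation in GEO. For the fit across all genes, names were brought up to date by unversioned RefSeq accession (16987 probes), current symbol (3035) or synonym (387) in the gene table of assembly GRCr8, and 8 kept theirs. Probes of a gene were averaged. The test of each ratio against 0 used limma 3.58.1 (R 4.3.3), with an intercept as the only term of lmFit, eBayes and Benjamini-Hochberg adjusted p under 0.05 over 15611 genes (1 residual and 1.28 prior degrees of freedom). The fit was checked on simulated data. Over genes, which are not independent, the arrays correlated with Pearson's r of 0.983, and the median SD of a gene was 0.05.

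The genes and lists were chosen with earlier results of these data known. Genes outside the main list were named as up to 4 per list with the largest passing ratios of 1 sign in both arrays, all genes of lists of 4 or fewer, and up to 3 per marker list. Ghr, Cish, Stat5b, Insr, Igfals, Ins1, Ins2, Irs1, Irs2, Pik3r1, Pik3r2, Pik3r3, Mtor, Igfbpl1 and Crim1 were named after their values were seen. So were the markers Pdgfra, Msr1 and Mrc1, where they are ends of a range. The alternatives tried were subtracted array medians, scaled arrays, robust eBayes, treat against a 2-fold change, an adjusted p under 0.01, the median probe, the probe nearest to 0, symbols not updated, and each array left out.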

Additional observations from a re-analysis of the deposited data

How the results depend on the processing

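The count of 6 of the 9 genes at least 2-fold lower in every array was the same under each alternative that gives it, including either array alone. Lower calls among the 9 numbered 9 with scaling, robust eBayes, the median probe and symbols not updated, 8 at an adjusted p under 0.01, 7 with array medians subtracted or the probe nearest to 0, and 6 with treat. With the probe nearest to 0, Igfbp5 turned to 0.11 (limma adjusted p 0.129) and Igf1 lay at -0.11 (limma adjusted p 0.0731). Under treat, 2143 genes of the table were higher and 1881 lower, against 5142 and 7765 in the main test, and 4 and 20 of the pathway genes were, against 22 and 49. With array medians subtracted, which raised the median gene by 0.22, 11 pathway genes rather than 7 were at least 2-fold higher in both arrays, and prior degrees of freedom went from 1.28 to 7.95. The subtraction moves every gene of an array by the same amount, so genes just short of 2-fold higher pass that line, such as Dlk1 (0.96, then 1.18). The cause of the change in prior degrees of freedom was not tested. With 1 array left out there is no residual degree of freedom and no test. No paired analysis was possible because there is 1 group of samples. Signal over background is not in the values used here, so genes dim in both channels, whose ratios carry little information, could not be set apart.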
